A study of Mus musculus with 342 samples.

Results

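The genes 2010003K11Rik, Chrna2 and Rdh9 are less known genes whose liver level in mice was, on average, among the most increased 24 hours after a dose of TAK-875, and their levels were followed here line by line. They are 3 of 9093 genes measured by a probe set that names a single gene, and each of them has 1 such probe set. They were chosen by their mean difference between TAK-875 and vehicle mice over all lines, where they ranked 4, 8 and 17 among all genes, so that mean is described and not tested. For comparison, limma called 27.1% of all genes on this mean, 15.3% higher and 11.9% lower (1388 and 1078 genes, and 1052 and 1334 with arrays centred on their medians).

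The mice were males of 44 Collaborative Cross lines, recombinant inbred lines bred from genetically diverse founders, about 8 to 10 weeks old at treatment. One group received TAK-875 (fasiglifam), which activates GPR40, a receptor for free fatty acids, as 1 oral dose of 600 mg/kg, and the other received the methylcellulose vehicle alone at 0 mg/kg. The mice were treated in 171 study pairs of 1 TAK-875 and 1 vehicle mouse of the same line, 4 pairs in 39 lines and 3 pairs in 5 lines, and each mouse gave 1 array of whole liver RNA. TAK-875 is the name in the labels, while another compound number stands in the series title.

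2010003K11Rik is a gene known mainly by its catalogue name, and the RefSeq table lists Nrnp1 as a synonym. Chrna2 encodes the alpha 2 subunit of nicotinic acetylcholine receptors, ligand-gated cation channels best known from neurons. Rdh9 encodes a retinol dehydrogenase of the short-chain dehydrogenase family, enzymes that oxidise retinol and steroid alcohols, and it lies in a chromosomal cluster with its relatives Rdh16, Rdh16f2, Rdh7 and Hsd17b6. Many liver genes that rise with fatty acids or fibrate drugs are controlled by PPARA, a nuclear receptor that binds DNA together with RXR at pairs of the core motif AGGTCA.

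The promoters are shown because the core motif that PPARA and other nuclear receptors share can be looked for in them directly. RefSeq sequences of the 250 bases before the start of the gene (assembly GRCm38.p6) were at hand for 2010003K11Rik and Rdh9. They cover chr19:4498584-4498833 on the minus strand and chr10:127776155-127776404 on the plus strand. Both are written 5′ to 3′ on the strand of the gene, with AGGTCA, or its reverse complement TGACCT, in capitals.

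2010003K11Rik: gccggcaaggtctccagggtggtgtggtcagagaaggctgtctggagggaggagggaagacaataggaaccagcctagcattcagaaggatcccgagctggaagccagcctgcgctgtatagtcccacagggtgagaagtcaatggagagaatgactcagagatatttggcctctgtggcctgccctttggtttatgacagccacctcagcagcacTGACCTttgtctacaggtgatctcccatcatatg

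Rdh9: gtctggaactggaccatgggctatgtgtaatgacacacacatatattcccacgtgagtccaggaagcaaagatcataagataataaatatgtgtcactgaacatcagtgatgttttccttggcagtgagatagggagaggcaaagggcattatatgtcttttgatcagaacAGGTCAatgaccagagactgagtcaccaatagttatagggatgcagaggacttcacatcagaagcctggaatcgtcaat

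Each promoter held 1 such motif, 34 bases before the start in 2010003K11Rik, on the opposite strand, and 79 bases before the start in Rdh9, on the strand of the gene. Of 32851 promoter windows of the same length, 14.0% held AGGTCA on either strand. A pair of motifs in the same direction with 1 base between them was in neither sequence, and in 0.0335% of all promoter windows. These matches describe letters in a window, not bound sites.

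The arrays had median log2 values of 5.40 to 6.22, and the median correlation of an array with others of its line and treatment was 0.976. Of the arrays, 6 correlated below 0.927, all from TAK-875 mice and each from a different line. Over the 500 genes that differ most between lines, 339 of 342 arrays resembled their own line best. The exceptions all carry the label CC010/GeniUnc. The TAK-875 and the vehicle mouse of its pair 2 correlated by 0.92 with the mean of CC033/GeniUnc, against 0.21 and 0.22 with the other mice of the label. The TAK-875 mouse of its pair 4, whose array is one of the 6 with a low correlation, was most like CC019/TauUnc, at 0.51. Results that rest on the label CC010/GeniUnc are therefore given with and without these 2 pairs. The 11 hepatocyte markers measured averaged between 12.37 and 12.62 in TAK-875 mice of the lines, against 12.34 to 12.60 in vehicle mice. In whole liver, fewer cells of a type and less RNA per cell cannot be told apart.

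2010003K11Rik was higher with TAK-875 in most lines, and by very different amounts. Its lowest, median and highest log2 levels were 4.19, 6.46 and 10.00 in the 171 TAK-875 mice, against 4.11, 5.56 and 7.57 in the 171 vehicle mice. The TAK-875 mouse was the higher one in 146 of 171 pairs, with pair differences from -1.09 over a median of 0.89 to 5.02. The mean over lines was 1.07 ± 0.79 (SD, n = 44 lines), or 2.11-fold, and it was above 0 in 42 of 44 lines. Of all genes, 0.319% were above 0 in at least 42 lines. In 25 lines every pair was higher, and in 17 lines all TAK-875 mice lay above all vehicle mice. Over all combinations of genes and lines, the shares were 10.8% and 3.92%. The line mean was at least 2-fold higher in 19 lines, as in 0.556% of all such combinations.

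CC052/GeniUnc had the largest line mean of 2010003K11Rik, 3.53 ± 1.46 (SD, n = 4 pairs), or 11.5-fold. Its TAK-875 mice had log2 levels of 9.61, 6.79, 9.97 and 8.45, against 5.46, 5.19, 4.95 and 5.10 in its vehicle mice. All treated mice of the line were above all of its vehicle mice, and the second pair had the smallest gap. CC029/Unc followed at 3.05 ± 1.84 (SD, n = 4), with 6.42, 9.19, 9.75 and 10.00 in TAK-875 mice and 6.11, 5.45, 5.88 and 5.73 in vehicle mice. There the first treated mouse stayed near the vehicle level, while the last had the highest level of 2010003K11Rik in the series. CC051/TauUnc was the most even of the strong lines, with 7.38, 7.31, 7.30 and 7.60 in TAK-875 mice against 4.95, 5.24, 5.23 and 4.95 in vehicle mice. Its line mean was 2.31 ± 0.28 (SD, n = 4).

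CC028/GeniUnc came next with 2.25 ± 0.53 and no overlap between its groups (SD, n = 4). CC011/Unc averaged 2.05 ± 2.28 (SD, n = 4), but its last pair ran the other way, at -1.09. The lines in between had means between 1.99 in CC012/GeniUnc and 0.31 in CC041/TauUnc. At the low end, CC005/TauUnc was at 0.22 ± 0.11, CC019/TauUnc at 0.10 and CC024/GeniUnc at 0.00 (n = 4 pairs each). CC025/GeniUnc was at -0.06 ± 0.48 (SD, n = 4), with 6.54, 6.50, 6.19 and 6.10 in TAK-875 mice and 7.07, 6.17, 5.81 and 6.52 in vehicle mice. The lowest mean was that of the mice labelled CC010/GeniUnc, -0.40 ± 0.49 (SD, n = 4), and -0.24 ± 0.76 without its pairs 2 and 4 (SD, n = 2). Across the 43 steps between neighbouring lines in this order, 0 gaps were larger than the mean SD of the 2 lines beside them.

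The TAK-875 response of 2010003K11Rik was not the same in all lines. A moderated F test in limma on the 171 pair differences gave F = 2.79 with an adjusted p of 0.000843, and 16.2% of all genes (1474) passed this test, or 129 to 690 genes without 1 of the pair numbers. The SD between lines was 0.62 after the spread within lines was taken off, the 13th largest of 9093 genes, against 0.96 within lines. The call rested in part on the third pair of the lines: without it the adjusted p was 0.0805, and without any other pair number it was between 0.0117 and 0.0240. Without the CC010/GeniUnc pairs 2 and 4 it was 0.00178.

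**Figure D1:**
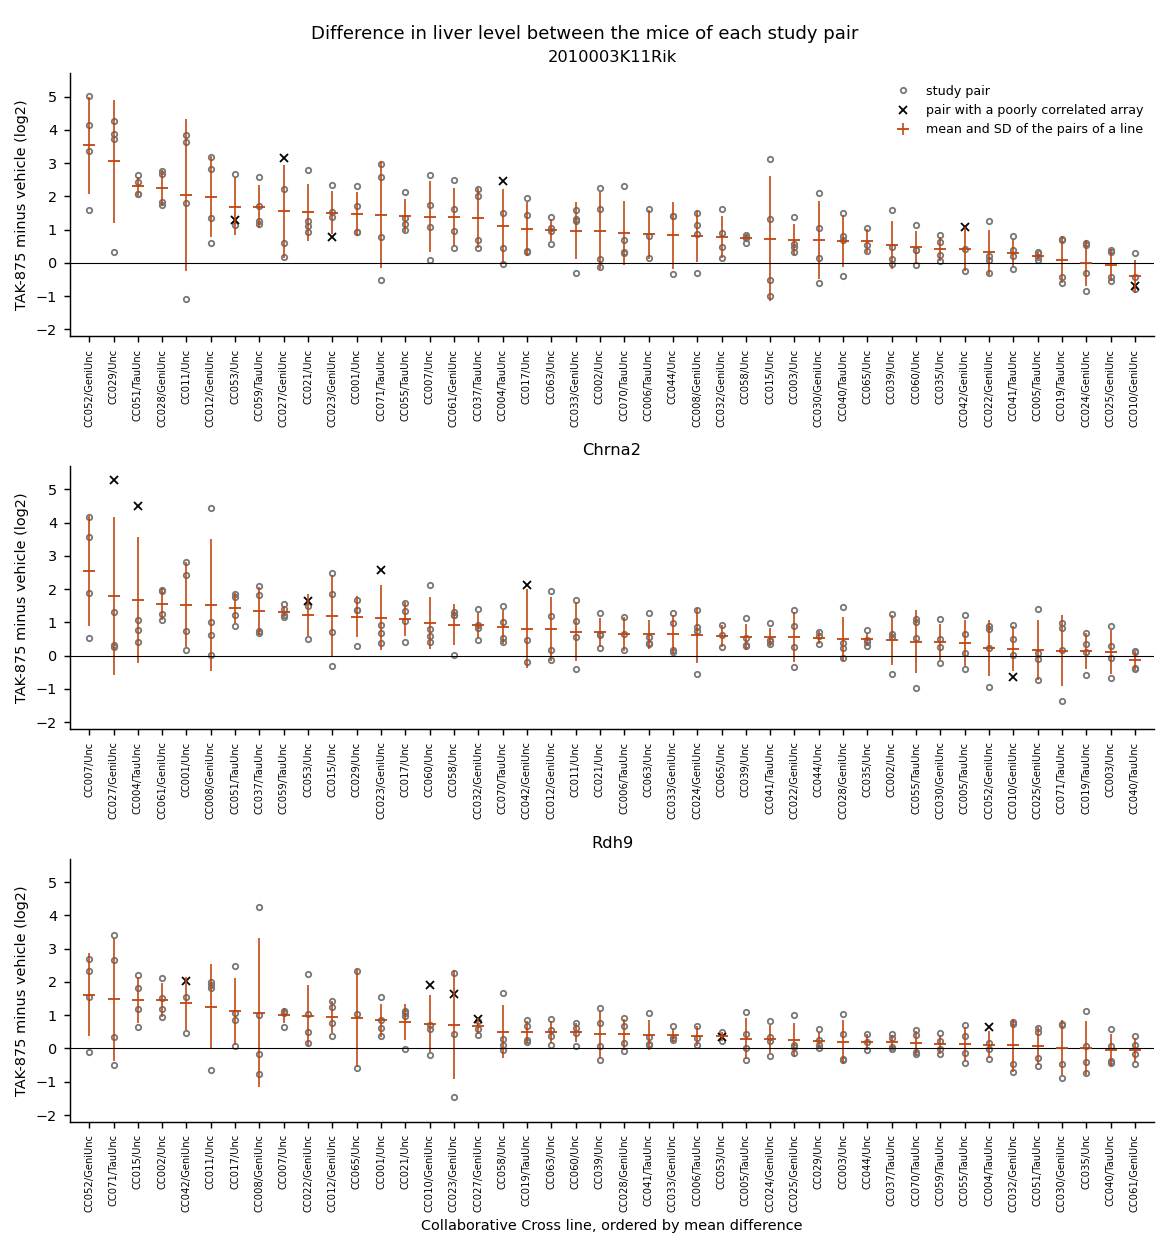
Log2 difference TAK-875 minus vehicle of each study pair (grey circles, black crosses where an array correlated below 0.927), with the mean and SD of each of 44 lines, for 2010003K11Rik, Chrna2 and Rdh9. The line means of 2010003K11Rik run from 3.53 to -0.40, and single pairs of Chrna2 reach 5.29.

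Chrna2 was higher with TAK-875 almost everywhere, with a few mice far above the rest. Its lowest, median and highest log2 levels were 4.39, 5.93 and 10.79 in TAK-875 mice, against 4.16, 5.27 and 7.54 in vehicle mice. The TAK-875 mouse was higher in 150 of 171 pairs, and pair differences ran from -1.36 over a median of 0.69 to 5.29. The mean over lines was 0.82 ± 0.54 (SD, n = 44 lines), or 1.77-fold, and above 0 in 43 of 44 lines. At least 43 lines were above 0 for 0.121% of all genes. All pairs were higher in 26 lines, the groups did not overlap in 17 lines, and the line mean was at least 2-fold higher in 14. Over all combinations of genes and lines, the shares were 10.8%, 3.92% and 0.556% in this order.

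CC007/Unc had the largest line mean of Chrna2, 2.54 ± 1.65 (SD, n = 4), or 5.81-fold. Its TAK-875 mice were at 9.78, 7.42, 9.09 and 6.91, against 5.61, 5.53, 5.52 and 6.39 in vehicle mice, so all of them were above the vehicle mice. The next lines rested on single mice. In CC027/GeniUnc the TAK-875 mice were at 10.79, 6.66, 5.91 and 5.83, against 5.36 to 5.64 in the 4 vehicle mice. Its mean of 1.80 ± 2.37 (SD, n = 4) became 0.63 without the first pair, whose TAK-875 array is one of the 6 with a low correlation. CC004/TauUnc had 5.53, 5.93, 4.93 and 9.30 in TAK-875 mice and 5.13, 4.87, 4.16 and 4.80 in vehicle mice, and its mean of 1.68 ± 1.90 (SD, n = 4) became 0.75 without the last pair, again one with such an array. CC008/GeniUnc showed the same shape with arrays of usual correlation, at 5.45, 5.04, 9.48 and 5.18 in TAK-875 mice against 4.82, 5.02, 5.03 and 4.17 in vehicle mice. In the 6 pairs with a poorly correlated array, the Chrna2 difference ran from -0.65 over a median of 2.35 to 5.29, and what part the array quality has in it was not tested.

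Other lines responded evenly. CC061/GeniUnc had 6.73, 7.29, 7.47 and 7.01 in TAK-875 mice against 5.48, 5.36, 5.49 and 5.95 in vehicle mice, a difference of 1.56 ± 0.47 (SD, n = 4). CC059/TauUnc had 6.55, 6.04, 6.63 and 6.07 against 5.15, 4.83, 5.08 and 4.91 in vehicle mice, a difference of 1.33 ± 0.18 (SD, n = 4). In both, the groups were well apart. CC001/Unc, at 1.53 ± 1.28 (SD, n = 4), was split, with 5.13, 7.20, 5.26 and 7.67 in TAK-875 mice against 4.97, 4.77, 4.51 and 4.86 in vehicle mice. The lowest lines were CC025/GeniUnc at 0.16, CC071/TauUnc at 0.15, CC019/TauUnc at 0.14, CC003/Unc at 0.11 and CC040/TauUnc at -0.14. In CC040/TauUnc the TAK-875 mice had 4.97, 5.27, 5.40 and 5.99, within the span of the vehicle mice but for the lowest and the highest, which were at 5.35, 5.68, 5.27 and 5.89. None of the 43 gaps between neighbouring lines exceeded the SD beside it.

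A difference between lines in the Chrna2 response did not pass the test. The limma F was 1.45 with an adjusted p of 0.145, and the spread within lines (SD 0.91) exceeded that between lines (SD 0.28). Without the fourth pair of the lines the adjusted p was 0.0422, so the call depends on which mice are counted. Without the 6 pairs with a poorly correlated array it was 0.0575.

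Rdh9 had the smallest mean difference of the group and the widest range among lines in vehicle mice. Its lowest, median and highest log2 levels were 4.32, 8.09 and 10.54 in TAK-875 mice, against 4.06, 7.55 and 10.16 in vehicle mice. The TAK-875 mouse was higher in 132 of 171 pairs, with pair differences from -1.45 over a median of 0.43 to 4.25. The mean over lines was 0.57 ± 0.47 (SD, n = 44 lines), or 1.49-fold, and above 0 in 42 of 44 lines. Of all genes, 0.319% were above 0 in at least 42 lines. All pairs were higher in 17 lines, the groups did not overlap in 9, and the line mean was at least 2-fold higher in 8. Over all combinations of genes and lines, the shares were 10.8%, 3.92% and 0.556% in this order. The suffix of its probe set marks probes that may match more than 1 transcript, so an overlap with related genes is uncertain.

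The largest line means of Rdh9 were 1.61 in CC052/GeniUnc, 1.48 in CC071/TauUnc, 1.46 in CC015/Unc, 1.45 in CC002/Unc and 1.35 in CC042/GeniUnc, the last being 1.01 without its poorly correlated pair. CC015/Unc had 7.06, 7.20, 7.15 and 7.13 in TAK-875 mice against 5.23, 6.56, 5.97 and 4.91 in vehicle mice. Its treated mice lay within a narrow band above all vehicle mice, which were far more scattered. CC071/TauUnc had 7.16, 6.92, 4.32 and 7.45 in TAK-875 mice against 4.49, 6.56, 4.82 and 4.06 in vehicle mice, so the groups overlapped. CC007/Unc, at 0.99 ± 0.23 (SD, n = 4), was even, with 7.99, 7.94, 7.57 and 8.02 in TAK-875 mice against 6.88, 6.81, 6.49 and 7.37 in vehicle mice. At the other end CC051/TauUnc was at 0.07, CC030/GeniUnc at 0.02, CC035/Unc at 0.01, and both CC040/TauUnc and CC061/GeniUnc at -0.04. In CC061/GeniUnc the TAK-875 mice had 8.65, 8.65, 8.70 and 8.39, against 8.55, 8.28, 8.87 and 8.86 in vehicle mice.

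As for Chrna2, a difference between lines in the Rdh9 response did not pass the test. The limma F was 1.40 with an adjusted p of 0.171, and the SD was 0.24 between lines against 0.80 within them. Over all alternatives tried, this adjusted p was between 0.0628 and 0.646.

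Some of the large single responses fell on the same pair for 2 of the 3 genes, and none for all 3. A pair difference above 3 on the log2 scale, or 8-fold, was seen in 11 pairs of 6 lines for 2010003K11Rik, in 5 pairs of 4 lines for Chrna2 and in 2 pairs of 2 lines for Rdh9. These made up 16 pairs, of which 2 passed the bound for a second gene. One was the first pair of CC027/GeniUnc, with 3.17 for 2010003K11Rik and 5.29 for Chrna2. The other was the third pair of CC008/GeniUnc, with 4.45 for Chrna2 and 4.25 for Rdh9. All 3 genes were higher in 99 of 171 pairs, and none was higher in 2. CC017/Unc was the 1 line in which each was at least 2-fold higher on average, and in 21 lines none was.

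Without the drug the lines already differed in all 3 genes, with the widest spread in Rdh9. Among vehicle mice, 98.0% of all genes differed between lines by the limma F test, so passing it sets no gene apart. Line means of Rdh9 in vehicle mice ran from 4.98 in CC071/TauUnc to 9.76 in CC033/GeniUnc, a 27.4-fold range. The limma F was 16.1 with an adjusted p of 6.61e-34. The SD between lines was 1.24, the 84th largest of 9093 genes. Above CC071/TauUnc came CC023/GeniUnc with vehicle mice at 4.13, 5.46, 5.96 and 4.39, then CC008/GeniUnc at 5.60, CC011/Unc at 5.61 and CC015/Unc at 5.67. At the top, the vehicle mice of CC033/GeniUnc had 10.16, 10.06, 9.18 and 9.61, and those of CC059/TauUnc 9.12, 9.86, 9.65 and 9.84. Below them were CC053/Unc at 9.39, CC063/Unc at 9.26 and CC028/GeniUnc at 9.23. The highest and lowest lines did not overlap in any mouse.

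The mice labelled CC010/GeniUnc stood out in Rdh9. Their TAK-875 mice had 7.16, 10.54, 6.72 and 8.45 and their vehicle mice 7.35, 9.96, 6.01 and 6.55. Both mice of pair 2, which resembled CC033/GeniUnc over line-variable genes, were near the level of that line. Without pairs 2 and 4 the label had a mean of 6.94 ± 0.32 in TAK-875 mice and 6.68 ± 0.95 in vehicle mice (SD, n = 2), against 8.22 ± 1.71 and 7.47 ± 1.75 with them (SD, n = 4).

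The vehicle levels of 2010003K11Rik spanned 4.37-fold, from 4.35 ± 0.17 in CC035/Unc to 6.48 ± 0.49 in CC021/Unc (SD, n = 4 mice each). The limma F was 4.96 with an adjusted p of 1.74e-12. The lines above CC035/Unc were CC042/GeniUnc at 4.78, CC033/GeniUnc at 4.81, CC055/TauUnc at 4.90 and CC011/Unc at 5.05. Those below CC021/Unc were CC025/GeniUnc at 6.39, CC015/Unc at 6.38, CC040/TauUnc at 6.28 and CC002/Unc at 6.20. Chrna2 spanned 3.26-fold in vehicle mice, from 4.64 ± 0.20 in CC065/Unc (SD, n = 3) to 6.34 ± 0.83 in CC025/GeniUnc (SD, n = 4), with a limma F of 4.29 and an adjusted p of 1.37e-10. After CC065/Unc came CC004/TauUnc at 4.74 and then CC008/GeniUnc, CC015/Unc and CC039/Unc, all at 4.76. Below the highest line were CC012/GeniUnc at 6.07, CC021/Unc at 6.07, CC006/TauUnc at 5.92 and CC060/Unc at 5.83. Of the 43 gaps between neighbouring lines, 1 exceeded the SD beside it for 2010003K11Rik, 0 for Chrna2 and 1 for Rdh9.

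**Figure D2:**
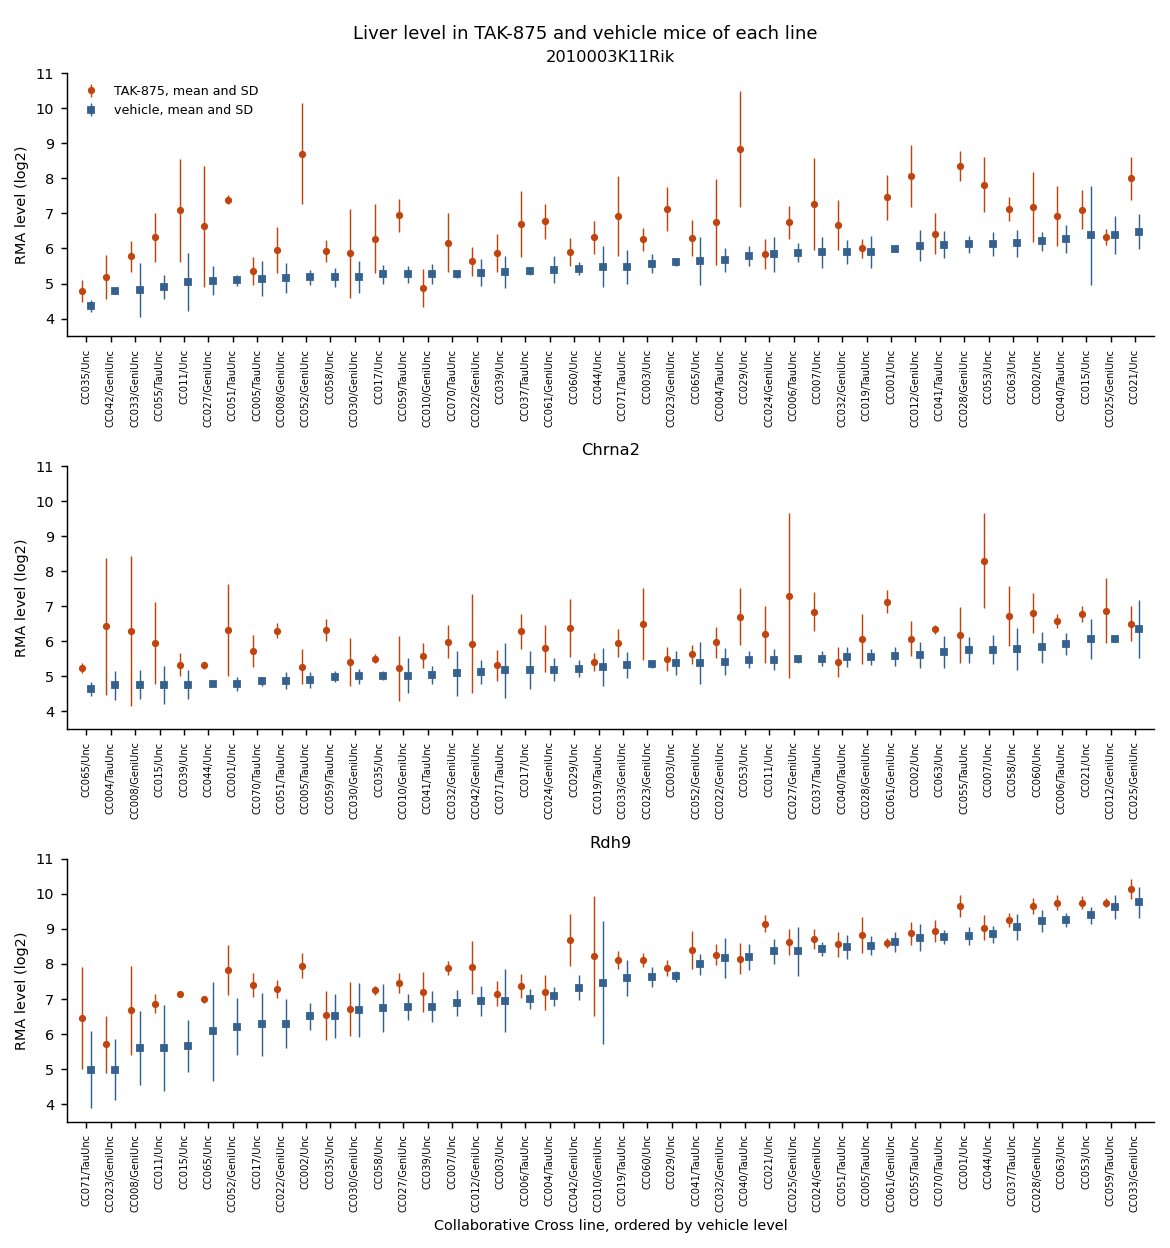
RMA log2 level (mean and SD of the 3 or 4 mice) in TAK-875 mice (red circles) and vehicle mice (blue squares) of each of 44 lines, ordered by vehicle level, for the 3 genes. Vehicle levels of Rdh9 climb from 4.98 to 9.76 with TAK-875 mice close above them at the right, while TAK-875 levels of 2010003K11Rik scatter up to a line mean of 8.84.

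The spread of line levels was smaller in TAK-875 mice than in vehicle mice for Rdh9 and larger for 2010003K11Rik and Chrna2. The SD of line levels was 1.06 in TAK-875 mice against 1.28 in vehicle mice for Rdh9, 0.93 against 0.50 for 2010003K11Rik and 0.65 against 0.42 for Chrna2. This was tested as the correlation of the difference with the mean level of both treatments, which itself contains the TAK-875 value. For Rdh9 it was below 0 (Pearson r = -0.49, Spearman rho = -0.44, n = 44 lines, permutation p = 0.00097, adjusted over 3 tests 0.00097). For 2010003K11Rik and Chrna2 it was above 0, with r = 0.62 and rho = 0.59 for 2010003K11Rik (permutation p = 3e-05, adjusted 9e-05) and r = 0.48 and rho = 0.46 for Chrna2 (permutation p = 0.00078, adjusted 0.00097), both over 44 lines. Without the 2 lines farthest from the median level, r was 0.58 for 2010003K11Rik, 0.36 for Chrna2 and -0.45 for Rdh9. The slope of TAK-875 level on vehicle level over the 44 lines was 0.77 for Rdh9, 0.87 for Chrna2 and 1.00 for 2010003K11Rik. A slope of 1 means no linear change of the difference with vehicle level. For 2010003K11Rik and Chrna2, the outer lines by vehicle level differed little beside the SD over lines of the difference, 0.79 and 0.54. For Rdh9 the difference was on average smaller at the high end. It averaged 0.30 in the 11 lines with the highest vehicle level against 1.10 in the 11 with the lowest for Rdh9, 1.14 against 1.31 for 2010003K11Rik and 0.90 against 1.06 for Chrna2, a contrast with the vehicle values on both sides that was not tested. These tests were chosen after the values had been seen, and the 3 genes were chosen by the mean of the same difference. The adjustment over 3 tests covers neither choice, so the p-values serve as a description. The tests ask only whether line levels spread more with or without TAK-875, and the scatter of mice within lines also enters that spread. What part this scatter has was not tested. The genes also differed in brightness. Averaged over all arrays, the level lay above that of 40.3% of genes for Chrna2, 47.5% for 2010003K11Rik and 74.7% for Rdh9. What part low signal has in the spread of vehicle levels was not tested either. The line levels of TAK-875 and vehicle mice correlated by 0.94 for Rdh9, 0.53 for 2010003K11Rik and 0.56 for Chrna2.

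The genes whose response followed each of the 3 across lines were then looked for. All correlations that follow are Pearson r of line mean differences over 44 lines, given as a description: both genes of a pair were read from the same arrays. Within-line values are correlations of pair differences after the mean of each line was taken off. Line means carry the spread within lines too. Their SD was 0.54 for Chrna2, 0.47 for Rdh9 and 0.79 for 2010003K11Rik, and 0.28, 0.24 and 0.62 with that spread taken off. Values across and within lines are therefore not separate findings, least of all for Chrna2 and Rdh9. Over all genes the median of the best match per gene was r = 0.74, so a highest r near this value is usual.

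Chrna2 followed genes of peroxisomes and fatty acid oxidation. Its closest match was Pex11a, which encodes a factor of peroxisome proliferation and is a known PPARA target, at r = 0.68. Pex11a was first of all genes also within lines (0.67) and in the level in TAK-875 mice (0.69). Then came Slc25a20, the mitochondrial carnitine-acylcarnitine carrier, at 0.63 (0.65 within lines). Mrps2, a mitochondrial ribosomal protein gene, had 0.62 across lines but 0.09 within them. Creb3l3, a liver transcription factor of lipid metabolism, had 0.62 (0.62 within lines), and Pex19, a chaperone of peroxisomal membrane proteins, had 0.61 (0.41 within lines). The lowest were Ifitm3, an interferon-induced membrane protein gene, at -0.57 and Il18, a cytokine gene, at -0.51. Without the 6 poorly correlated pairs Pex11a stayed at 0.66 and Ifitm3 was at -0.40.

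2010003K11Rik followed a more mixed group. The highest were Myo1c, an unconventional myosin, at r = 0.78 (0.51 within lines), Rbfox2, a splicing factor, at 0.70 (0.42), and Pla2g6, a calcium-independent phospholipase, at 0.70 (0.49). Srm, the spermidine synthase, had 0.69 (0.56 within lines), and H2ax, a histone variant, had 0.69 (0.45 within lines). Without the 2 lines whose response lay farthest from the median, Myo1c was at 0.69. The lowest were Ypel5 and Pipox, both at -0.66. Pipox encodes the peroxisomal pipecolic acid oxidase, and it fell by 0.42 on the log2 scale over lines (limma adjusted p = 1.2e-13), lower in all 44 lines.

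No gene followed Rdh9 closely. The highest were Tedc2, of centriole complexes, at r = 0.55, Smarcc1, a chromatin remodelling subunit, at 0.47, Cdc42ep5, a Cdc42 effector, at 0.47, Lurap1l at 0.46 and Oas1b, of the interferon-induced oligoadenylate synthetase family, at 0.46. Within lines these were at 0.07, 0.18, 0.05, 0.15 and -0.11. The lowest were Haus7, of the augmin complex, at -0.58 and Spats2 at -0.52, with -0.09 and -0.01 within lines. The 3 genes followed each other weakly, with 0.31 for 2010003K11Rik and Chrna2 (0.38 within lines), 0.18 for 2010003K11Rik and Rdh9 (0.10) and 0.03 for Chrna2 and Rdh9 (0.23). These values were unstable: 2010003K11Rik and Chrna2 had 0.46 without the 2 lines farthest from the median, 2010003K11Rik and Rdh9 had 0.05 to 0.34 without 1 of the pair numbers, and Chrna2 and Rdh9 had -0.06 to 0.26.

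**Figure D3:**
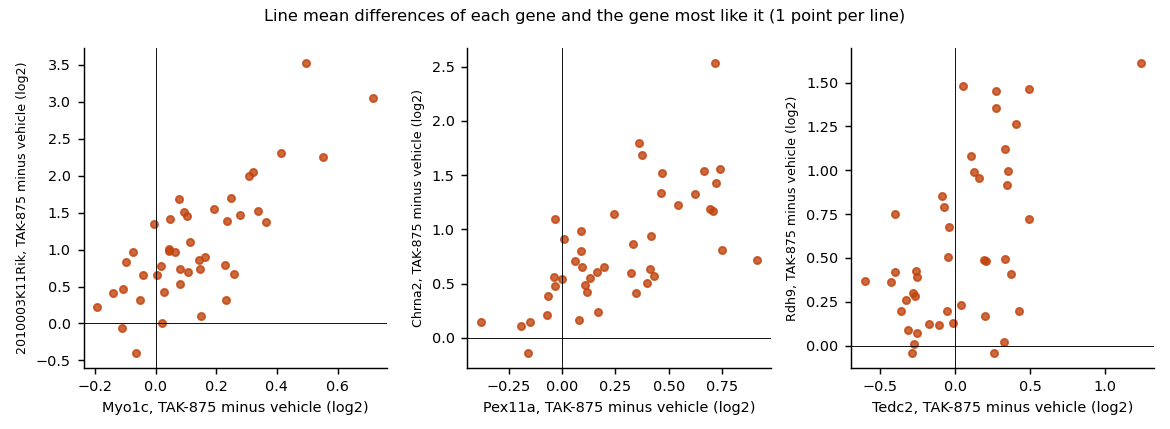
Line mean differences (TAK-875 minus vehicle, log2, 1 point per line, 44 lines) of each gene against those of the gene most like it in response. Pearson r is 0.78 for 2010003K11Rik and Myo1c, 0.68 for Chrna2 and Pex11a, and 0.55 for Rdh9 and Tedc2.

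Known genes of several pathways were set beside them as anchors, 22 of which were measured. They were chosen with earlier results of these data known. Several, such as Acot1, Ehhadh and Vnn1, rose on the mean over lines, so all genes are not a matched background for them. Chrna2 correlated above 0.3 with 11 of 22, against 2.77% of all genes. They were led by Fgf21, a liver hormone gene, at 0.58, and Acot1, a cytosolic acyl-CoA thioesterase, at 0.56. Aldh3a2, the fatty aldehyde dehydrogenase, was at 0.49, Alas1, the first enzyme of heme synthesis, at 0.44, and Vnn1, pantetheinase, and Cpt1a, the gatekeeper of mitochondrial fatty acid uptake, both at 0.43. Ehhadh, Acot3 and Acaa1b, of peroxisomal oxidation, were at 0.38, 0.37 and 0.34. Per2 of the clock was at 0.34 and the epoxide hydrolase Ephx1 at 0.31. The PPARA target Cyp4a10, an omega hydroxylase, was lower, at 0.19, and the CAR target Cyp2b10 was at 0.03.

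2010003K11Rik correlated above 0.3 with 10 of 22 anchors, against 10.8% of all genes. These were Fgf21 at 0.48, Acot3 at 0.44, Acot1 at 0.43, Alas1 at 0.42, the glucocorticoid target Fkbp5 at 0.41, Cpt1a at 0.39, Aldh3a2 at 0.38, Ephx1 at 0.37, Per2 at 0.32 and the NRF2 target Nqo1 at 0.31. Other PPARA targets were not among them: Ehhadh was at 0.27, Vnn1 at 0.19, Acaa1b at 0.04 and Cyp4a10 at -0.12. Rdh9 correlated above 0.3 with 2 of 22, against 1.65% of all genes. They were Fkbp5 at 0.39 and Cpt1a at 0.36, while Acot1 was at -0.09 and Acaa1b at -0.24. Its lowest anchor was the clock output factor Dbp, at -0.26.

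Lists of PPARA targets did not all go the same way. Among all genes 15.3% rose and 11.9% fell on the mean over lines. Over the 12 measured PPARA targets of lipid binding, storage and secretion, all of which rose on the mean over lines, the median r was 0.47 for Chrna2, 0.35 for 2010003K11Rik and 0.12 for Rdh9. Over 20 peroxisomal genes, of which 14 rose, it was 0.32, 0.24 and 0.03 in the same order of genes. For 19 genes of mitochondrial fatty acid oxidation and ketogenesis, of which 12 rose, it was 0.24, 0.11 and 0.03. For 6 genes of omega oxidation, of which 4 rose and 1 fell, it was 0.13, -0.11 and 0.04, and 2010003K11Rik correlated by -0.19 with the mean of that list (-0.27 within lines). The medians over all genes were -0.02 for Chrna2, 0.02 for 2010003K11Rik and -0.02 for Rdh9. With the mean response of the lipid list, Chrna2 correlated by 0.71 across lines and by 0.70 within them, and 2010003K11Rik by 0.50 and 0.39. Lists outside PPARA came near these values for 2010003K11Rik. Its r was 0.42 across and 0.34 within lines with the mean of the NRF2 targets. For the unfolded protein response it was 0.29 and 0.32, for the integrated stress response 0.08 and 0.41, and for the peroxisomal list 0.48 and 0.21. In the lipid list the closest to Chrna2 were Creb3l3, Fgf21 and Plin2, a lipid droplet coat gene, at 0.62, 0.58 and 0.58. The closest to 2010003K11Rik were Mgll, the monoglyceride lipase, at 0.59 and Plin2 at 0.57. Plin2 and Mgll are named after their values were seen.

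For Rdh9 the lists farthest from 0 were others, and their counts stand beside 15.3% of all genes that rose and 11.9% that fell. Its median r was 0.21 over 13 glucocorticoid and fasting genes, of which 3 rose and 6 fell, -0.22 over 14 genes of cholesterol synthesis, of which 8 rose, and -0.33 over 7 thyroid hormone targets, of which 3 fell. With the mean response of the glucocorticoid and fasting list its r was 0.45 across lines and 0.32 within them. For the thyroid hormone targets it was -0.40 and -0.44, and for cholesterol synthesis -0.23 and -0.31. For the PPARA list of mitochondrial fatty acid oxidation and ketogenesis it was 0.11 across lines but 0.34 within them. With the mean of the 11 hepatocyte markers it was 0.35 and 0.37. For all 3 genes the median r with the 13 Kupffer cell and macrophage markers was below 0, at -0.14 for 2010003K11Rik, -0.18 for Chrna2 and -0.19 for Rdh9, but within lines it was 0.03, -0.05 and 0.01. Of these markers 10 fell, with a median of -0.21, and their mean level per line ran from 5.86 to 7.14 in TAK-875 mice against 6.02 to 7.27 in vehicle mice. Their part in these results was not tested.

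**Figure D4:**
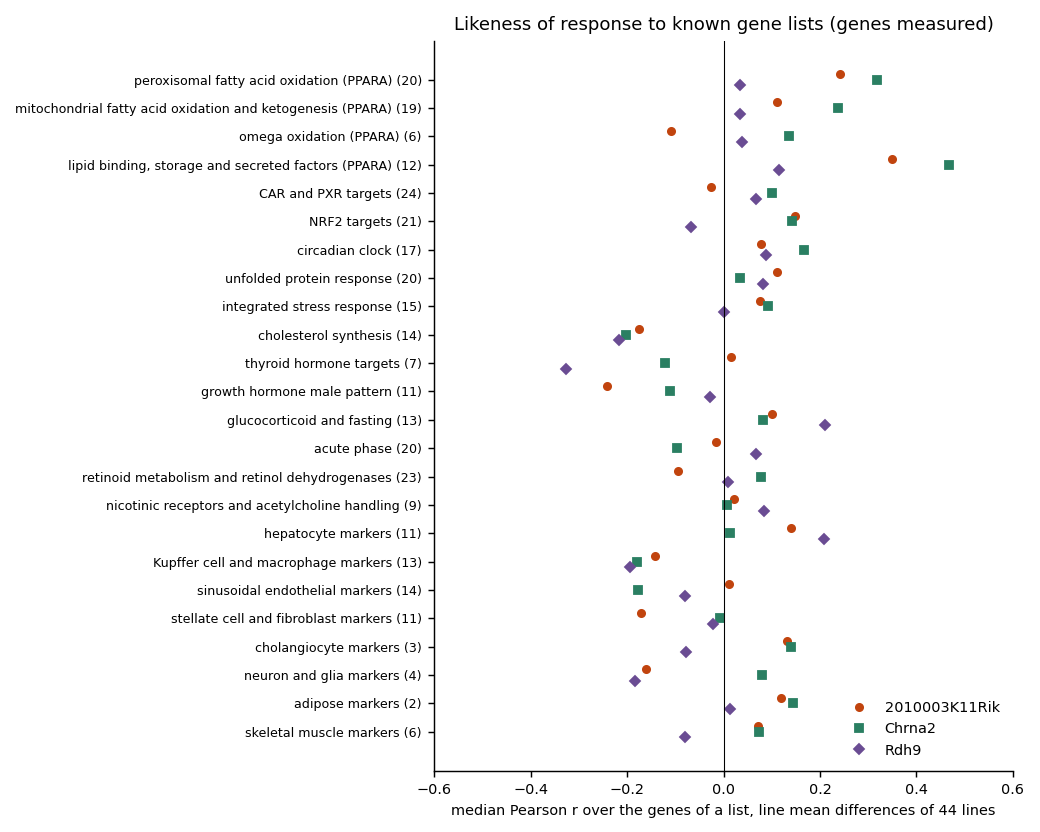
Median Pearson r (44 lines) between the line mean difference of 2010003K11Rik (circles), Chrna2 (squares) or Rdh9 (diamonds) and those of the measured genes of 24 lists. The PPARA lists of lipid binding and of peroxisomes lie furthest right for Chrna2, at 0.47 and 0.32, while Rdh9 lies at 0.12 and 0.03.

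Other genes listed with nicotinic receptors were then counted. Of the 31 genes listed for nicotinic receptors and acetylcholine handling, 9 were measured, 2 rose and 1 fell, with a median difference of 0.00, against 15.3% higher and 11.9% lower among all genes and a median of 0.01. Crat, the carnitine acetyltransferase, rose by 0.45 (limma adjusted p = 1.4e-08), and it was also counted above in the peroxisomal list of PPARA targets. Of the choline kinases, Chkb rose by 0.23 (limma adjusted p = 4.3e-07) and Chka fell by 0.16 on the log2 scale (limma adjusted p = 0.0134). Of the other receptor subunits measured, 0 of 3 passed in limma. Chrna4 was at 0.18 ± 0.62, Chrna9 at -0.02 ± 0.20 and Chrnb2 at 0.05 ± 0.41 (SD over 44 lines), and of them Chrna4 had an unadjusted limma p under the threshold, 0.0449. Chrna9 and Chrnb2 are named here after their values were seen. The 4 neuron and glia markers measured averaged between 3.99 and 4.84 in TAK-875 mice of the lines, against 4.01 to 4.81 in vehicle mice, and their median r with Chrna2 was 0.08.

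Of 40 genes listed for retinoid metabolism, 23 were measured, 5 rose and 3 fell, with a median difference of 0.00. Among all genes 15.3% rose and 11.9% fell, so these counts do not set the list apart. Cyp26b1, a retinoic acid hydroxylase, rose by 0.33 ± 0.81 (SD over lines, limma adjusted p = 0.0265) and Dhrs4, a carbonyl and retinal reductase, by 0.20 ± 0.17 (limma adjusted p = 2.4e-08). Stra6l, a retinol-binding protein receptor, fell by 0.20 on the log2 scale (limma adjusted p = 2.8e-08). Cyp26a1, at 0.19 ± 0.98, missed the threshold (limma adjusted p = 0.35). The median r of the list with Rdh9 was 0.01.

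The relatives of Rdh9 in its cluster were set beside it. In vehicle mice, line levels of Rdh9 correlated by 0.46 with Hsd17b6, by 0.44 with Rdh16f2, by 0.37 with Rdh7 and by 0.19 with Rdh16. Some genes of other lists had higher values, such as Pex16 at 0.55 and Pex19 at 0.54, but 0.550% of all genes had an absolute r above 0.5. How many genes reach the values of the relatives was not counted. Line means of Rdh16f2 in vehicle mice ran from 3.97 to 11.17. Rdh16 rose by 0.14 ± 0.32 (SD over 44 lines, limma adjusted p = 0.0217), and r between its response and that of Rdh9 was 0.24. The mean differences of the others did not pass, at -0.01 ± 0.48 for Rdh16f2, 0.02 ± 0.09 for Rdh7 and -0.05 ± 0.39 for Hsd17b6 (SD over 44 lines). These 4 relatives and Pex16 are named here after their values were seen.

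Genes further along the chromosome were also compared in vehicle level. Among the 92 measured genes within 50 places of Rdh9, 9 had an absolute r above 0.5 with it over the 44 lines, or 9.78%, against 0.550% of all genes. They were Tspan31 at 0.63, Mettl1 at 0.59, Cdk2 at 0.53, Tmbim4 at 0.53, Bloc1s1 at 0.52 and the adjacent Gpr182 at 0.51, and with the opposite sign Dgka at -0.58, B4galnt1 at -0.54 and Rpl41 at -0.53. For 2010003K11Rik the share was 9.33%, or 7 of 75, against 2.06% of all genes, with Mrpl49 at 0.62 and Rela at 0.57 highest, but with arrays centred on their medians Mrpl49, at 0.52, was the 1 gene of the 7 still above 0.5. For Chrna2 it was 1 of 100, the gene Tsc22d1 at 0.54, against 0.517%. In the response to TAK-875 the window of 2010003K11Rik held 1 such gene, Sf3b2 at 0.55, and the others 0. Over the whole array the vehicle levels most like 2010003K11Rik were those of Polr2g at 0.69, Hilpda at 0.64 and Fancl at 0.62. For Chrna2 they were Fam122a at 0.61, Nr2c2ap at 0.60 and Zfp592 at 0.58, and for Rdh9 Tamm41 at 0.66, Tspan31 at 0.63 and Dusp22 at 0.63. This comparison was added after the values had been seen, lines that share a founder segment are not independent points, and sequence differences between lines at the probes were not tested.

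**Figure D5:**
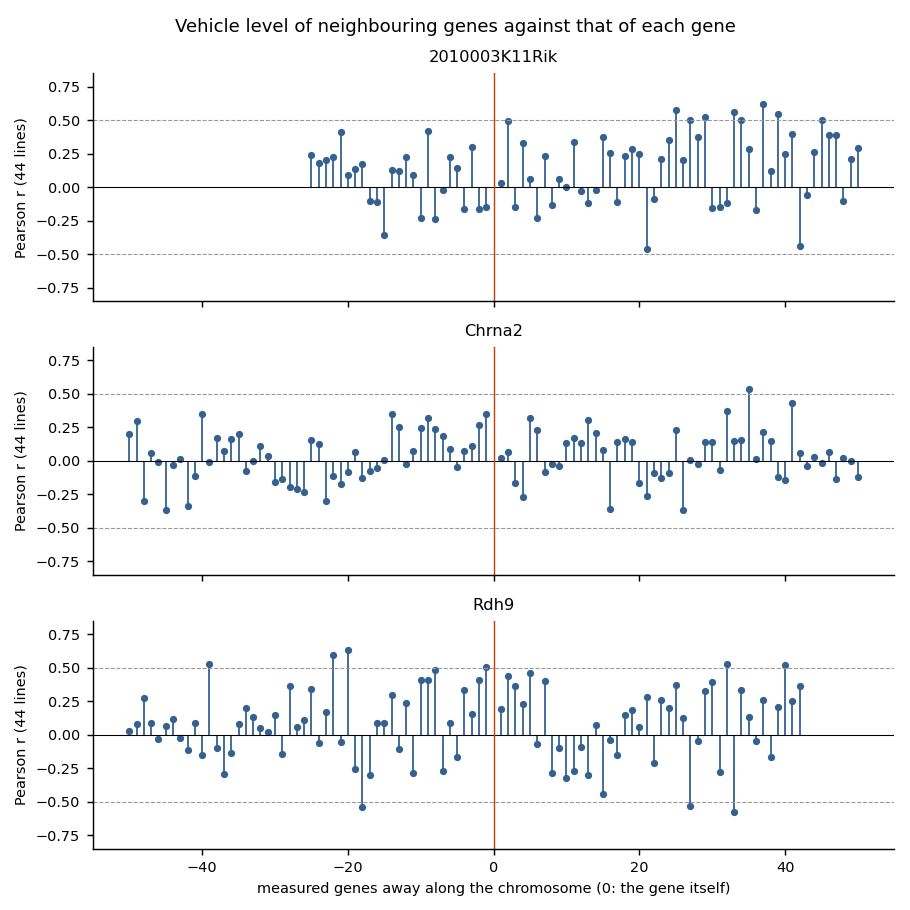
Pearson r over 44 lines between the vehicle level of each gene and those of its measured neighbours, by the number of measured genes away (0 is the gene itself). Dashed lines mark 0.5 and -0.5. Rdh9 has 9 of 92 neighbours past them, 2010003K11Rik 7 of 75 and Chrna2 1 of 100. Of the 7 neighbours of 2010003K11Rik, 1 stayed above 0.5 with arrays centred on their medians.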

How the data were processed

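Liver RNA of 342 mice was measured on the HT MG-430 PM array, per the labels. The authors deposited log2 values. The submitters' processing notes name RMA and Affymetrix Power Tools, with versions not given in the sources used here. Scanner signals were not used here. The values ran from 1.62 to 13.81. Of 16397 probe sets, 13083 name 1 gene, 261 several and 3053 none; 13063 of the 13083 were found in RefSeq by gene ID, with 0 symbols changed. Each of 9093 genes was read from its brightest single-gene probe set, by the mean of all arrays. The number of arrays limits the precision, and each mouse is a separate animal.

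Differences were taken within study pairs as TAK-875 minus vehicle and averaged per line. Lines were compared by moderated F tests with trend in limma 3.58.1 (R 4.3.3), on pair differences and on vehicle levels, with Benjamini-Hochberg adjustment over all genes at 0.05, and the mean over the 44 lines by limma on line means. Pearson r, permutations (100000) and figures were made in Python 3.11.15 with numpy 2.4.6, pandas 2.3.3, scipy 1.17.1 and matplotlib 3.10.9. Fits were tested on simulated data. The pairing comes from the labels, which say that mice were treated in pairs; deviations from group means correlated by 0.0361 within pairs and -0.0117 between different pairs of a line, and in 60 of 171 pairs by more than 0.1.

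The genes named are the 3 studied, the 5 highest and 2 lowest in r of response and the 3 highest in r of vehicle level for each, 22 measured anchor genes of known pathways, up to 4 genes each of the retinoid and nicotinic lists with the largest absolute response, and the 5 highest and lowest lines. Genes and lists were chosen with earlier results of these data known. Alternatives were centring arrays, a new quantile normalization, averaging probe sets, the study pair as the unit, dropping the dimmest 25% of genes, no trend, no pairing, rank correlation, correlation within lines, and leaving out pair numbers, poorly correlated arrays or the pairs unlike their line. An array counted as poorly correlated where it lay over 3 interquartile ranges below the first quartile.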

Additional observations from a re-analysis of the deposited data

Results flagged for a closer look

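The response of 2010003K11Rik in CC029/Unc had 1 pair far from the others, with a TAK-875 minus vehicle difference of 0.313 against 3.74, 3.87 and 4.27. The response of Chrna2 in CC004/TauUnc had 1 pair far above the others, at 4.50 against 0.41, 0.77 and 1.06, and the TAK-875 array of that pair is one of the 6 with a low correlation to its line. Both gaps passed Dixon's critical value for 4 samples. Of 55 groups of 4 tested in this way these 2 passed, and chance passes about 1 in 20. The response of 2010003K11Rik differed between lines in the limma F test (adjusted p = 0.000843), a test that 16.2% of all genes passed.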

How the results depend on the processing

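The sign of the correlation between the responses of Chrna2 and Rdh9, 0.03, was not stable, at -0.06 without the 2 lines farthest from the median and -0.06 without pair 1; the other results compared kept their sign. Calls on the mean over lines were mostly higher as deposited (1388 and 1078 lower) and mostly lower with centred arrays (1052 and 1334) or a new quantile normalization (1177 and 1383). Leaving out each pair number in turn gave adjusted p-values (limma) between 0.0117 and 0.0805 for a difference between lines in the response of 2010003K11Rik, above 0.05 without pair 3 only, between 0.0422 and 0.450 for Chrna2, under 0.05 without pair 4 only, and between 0.0833 and 0.646 for Rdh9. The count of genes whose response differs between lines was 1474, and 129 to 690 with 1 pair number left out, where fewer pairs are tested. Without the replicate block, that is with the pairing of mice ignored, these adjusted p-values were 6.5e-05 for 2010003K11Rik, 0.220 for Chrna2 and 0.314 for Rdh9, with 1034 genes, and no call on the 3 genes changed. Without the 6 poorly correlated pairs the mean differences were 1.06, 0.75 and 0.54 for 2010003K11Rik, Chrna2 and Rdh9. Genes called on the mean over lines numbered 2466, and 1926 to 3193 over the alternatives. Levels of vehicle mice differed between lines for all 3 genes under each alternative run. The r of 2010003K11Rik with Myo1c was 0.51 within lines and that of Rdh9 with Tedc2 0.07, while that of Chrna2 with Pex11a moved little. What lies behind these shifts was not tested. The number of mice per line limits what can be said of a single line: the SD of the pair differences exceeded the mean in 18, 21 and 27 of 44 lines for the 3 genes.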

Other observations

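The responses of the 3 genes were also set beside measures of array quality, after the values had been seen. Across the 44 lines, the r of the response with the difference in array medians was 0.05 for 2010003K11Rik, -0.02 for Chrna2 and -0.11 for Rdh9. With the correlation of the TAK-875 arrays to their group it was -0.01, -0.10 and -0.20 in the same order of genes.

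Both mice of pair 2 labelled CC010/GeniUnc resembled CC033/GeniUnc in the 500 genes that differ most between lines, the TAK-875 mouse with r = 0.920 and the vehicle mouse with r = 0.918. The lowest r of any other array with its own line was 0.629. Whether these mice belong to another line was not tested beyond these values.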
